A study of Mus musculus with 3 samples.

Results

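The 10 genes described here encode the MHC class I presentation machinery, and all 10 were found by name among the 55293 gene symbols of the count table. They comprise B2m for the light chain, H2-K1, H2-D1 and H2-T23 for heavy chains, Tap1 and Tap2 for the peptide transporter, Tapbp for the loading factor tapasin, Psmb8 and Psmb9 for immunoproteasome subunits, and Nlrc5 for a transcriptional regulator. They were chosen by name, with their levels and shares of cells with a count across clusters and genotypes of these data already known, so the values below are a description and no test is given. Single-cell RNA sequencing was done on mouse pituitaries labelled TpitKO, TpitHT and TpitWT, with 1 library for each genotype, so that no value has a replicate error and genotype and library cannot be told apart. Tbx19 encodes Tpit, a transcription factor that the Pomc-producing corticotropes and melanotropes need to differentiate. The labels do not state how the Tpit allele was altered, what HT abbreviates, the strain, age or sex of the mice, or the number of mice in a library. Pituitaries of all 3 genotypes were dissociated and depleted of dead cells by sorting on propidium iodide before 3′ droplet libraries were made.

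MHC class I molecules display peptides from inside the cell to CD8 T cells and natural killer cells. The heavy chain folds in the endoplasmic reticulum with the light chain beta-2 microglobulin, and is loaded with peptides that the proteasome cuts in the cytosol and the TAP transporter carries across the membrane, while tapasin holds the empty heavy chain beside the transporter. Without beta-2 microglobulin most heavy chains do not reach the cell surface. Interferons raise most of these genes together, replace the constitutive proteasome subunits with the immunoproteasome ones, and act in part through NLRC5. Endothelial and immune cells carry the pathway at high levels, whereas many endocrine and neural cells carry little of it.

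The libraries held 13413 TpitKO, 12839 TpitHT and 11222 TpitWT cells, with 133252735, 152382545 and 107289047 counts. The authors sorted the cells into 21 clusters, named here only by markers in their leading genes. Tbx19 itself had 92 counts in the TpitKO library, 1886 in the TpitHT library and 1886 in the TpitWT library, equal to 0.690, 12.4 and 17.6 CPM, the counts for each 1000000 counts of the same cells. These are 3′ tags, and the labels do not say where the allele was altered, so they check the labels only in part. The corticotrope-like and melanotrope-like clusters held 0 TpitKO cells. The growth hormone gene Gh alone held 16.2% of all counts in TpitKO, 21.4% in TpitHT and 24.4% in TpitWT. Between 36 and 40 cell barcodes were shared by any pair of libraries. A ratio below is that of CPM + 10 on the log2 scale, and a gene counts as past the fold at 0.5 or more in either direction with at least 50 counts in both genotypes together. Intervals are 95% intervals that cover counting error only.

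The promoters of the light chain and of the 2 heavy chains with most counts are shown because these genes share sequence motifs through which the pathway is known to be driven together. The sequences are the 250 bases before the start site in RefSeq (GRCm38.p6), for B2m at chr2:122147437-122147686 on the plus strand, for H2-K1 at chr17:34000348-34000597 on the minus strand and for H2-D1 at chr17:35262844-35263093 on the plus strand. Each is written 5′ to 3′ along its gene, and capitals mark the 3 motifs searched.
B2m: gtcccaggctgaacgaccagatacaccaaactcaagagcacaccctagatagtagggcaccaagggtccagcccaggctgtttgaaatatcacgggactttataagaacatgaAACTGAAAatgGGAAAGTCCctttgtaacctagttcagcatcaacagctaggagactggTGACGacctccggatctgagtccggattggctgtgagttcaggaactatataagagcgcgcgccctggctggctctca
H2-K1: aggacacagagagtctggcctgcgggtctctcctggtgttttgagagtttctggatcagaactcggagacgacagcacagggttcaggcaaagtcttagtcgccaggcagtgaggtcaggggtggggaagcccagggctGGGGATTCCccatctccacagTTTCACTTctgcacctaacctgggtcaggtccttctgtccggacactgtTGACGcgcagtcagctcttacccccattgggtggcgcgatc
H2-D1: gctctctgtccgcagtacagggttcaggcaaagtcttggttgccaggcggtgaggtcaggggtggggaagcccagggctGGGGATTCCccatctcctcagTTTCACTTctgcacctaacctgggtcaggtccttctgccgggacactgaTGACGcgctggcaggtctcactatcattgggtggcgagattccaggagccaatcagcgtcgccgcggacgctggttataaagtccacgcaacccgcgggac
The motifs were an interferon regulatory factor core, AANNGAAA, a kappaB-type motif, GGNNNTTCC, and a cyclic AMP response element core, TGACG, searched on both strands. Their letters were set after the sequences had been seen, those of the kappaB-type motif after a longer form had been tried. They do not overlap each other in the 3 promoters shown. The interferon regulatory factor core lay 137 to 130 bases before the start in B2m, 90 to 83 bases before it in H2-K1 and 150 to 143 bases before it in H2-D1. Distances run from the RefSeq start. In the annotation of the counts H2-D1 starts at 35262730, before the stretch shown, which thus lies inside that gene. RefSeq promoters were at hand for 8 of the 10 genes. The interferon regulatory factor core was found in 4 of these 8 (B2m, H2-D1, H2-K1 and H2-T23) and in 21.3% of 32851 promoters of the same length. The kappaB-type motif was found in 3 of the 8 (B2m, H2-D1 and H2-K1) and in 15.7% of all promoters. The cyclic AMP response element core was found in 5 of the 8 (the same 3, Psmb9 and Tap1) and in 17.8% of all promoters. B2m, H2-K1 and H2-D1, whose sequences had been seen when the letters were set, are among the matches of each motif. The counts of matches therefore cannot be read against the shares of all promoters. A match is a description of letters and does not show that a factor binds there.

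In the genome build GRCm38, B2m lies alone on chromosome 2 (chr2:122147686-122153083, plus strand), inside the antisense gene Patl2. Nlrc5 lies on chromosome 8, and the other 8 genes lie on chromosome 17, in the major histocompatibility region. Tap1, Psmb8, Psmb9 and Tap2 form a tight group there. Psmb9 (34181987 to 34187764, minus strand) overlaps the start of Tap1 (34187553 to 34197225, plus strand). Psmb8 follows at 34197721 to 34201454 and Tap2 at 34203527 to 34216321, both on the plus strand. H2-K1 lies at 33996017 to 34000347 on the minus strand, H2-D1 at 35262730 to 35267499 on the plus strand, and H2-T23 at 36029773 to 36032855 on the minus strand inside the antisense gene A930015D03Rik. Tapbp (33915899 to 33929292, plus strand) overlaps Zbtb22 and Gm19412. All 10 are protein coding. Class I heavy chain genes are near-identical copies of each other and differ between mouse strains, so how reads were split among H2-K1, H2-D1, H2-T23 and their relatives is uncertain. Because counts come from 3′ ends, levels are compared between clusters and libraries and not between genes.

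Across the cells of the pituitary, the set as a group was lowest in hormone-producing clusters and in unnamed clusters other than cluster 16. It was highest in endothelial-like and macrophage-like cells and in the mixed immune cells of cluster 16. Over the 47 sums of at least 50 cells, B2m ran over a 137-fold range, up to 2641 CPM in endothelial-like TpitKO cells and down to 19.3 CPM in cluster 13 of TpitKO. H2-K1 ran over a 106-fold range and H2-T23, a nonclassical heavy chain that presents leader peptides to natural killer cell receptors, over a 113-fold range. H2-D1 had a narrower range of 33.9-fold. Psmb8 and Psmb9, catalytic subunits of the immunoproteasome, ran over 114-fold and 96.9-fold ranges, and both were highest in TpitKO cells of cluster 16, whose markers mix T cell, natural killer, myeloid and immunoglobulin genes. Tap2 and Tapbp varied least, over 9.19-fold and 7.46-fold ranges.

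**Figure D1:**
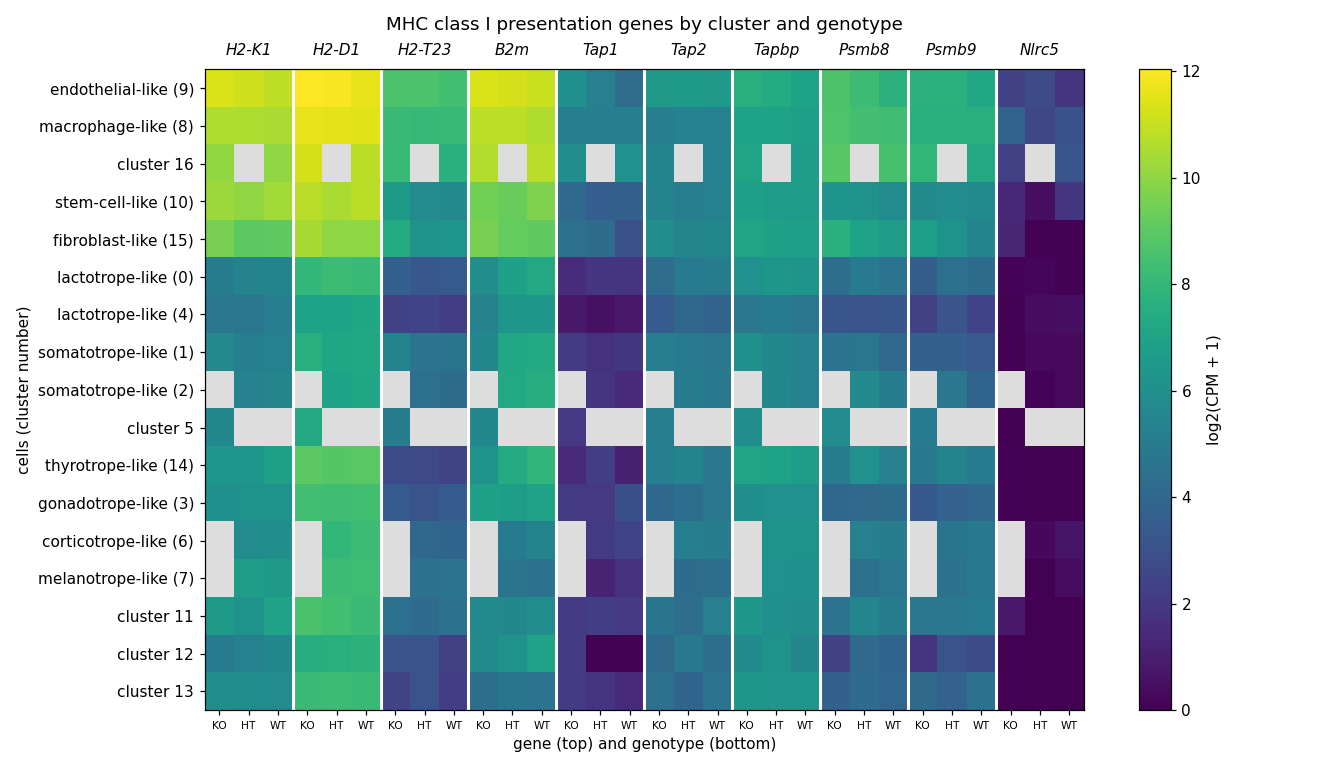
Level of each of the 10 genes, as log2 of CPM + 1, with clusters in rows and, for each gene, TpitKO, TpitHT and TpitWT in columns; grey cells mark sums of fewer than 50 cells. The endothelial-like and immune rows are brighter than the hormone-producing rows for all genes but Tap2 and Tapbp, which overlap, with B2m at 2641 CPM in endothelial-like TpitKO cells, and Nlrc5 is near 0 in most rows.

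In 8 of the 10 genes, all but Tap2 and Tapbp, every hormone-producing cluster lay below the macrophage-like cluster 8, the endothelial-like cluster and cluster 16 without overlap, as 2.28% of 22851 genes did. Nlrc5 is among the 8 on 132 counts in all, with 30 of its 55 TpitKO counts in immune clusters. Its TpitWT endothelial-like value rests on 2 counts, so Nlrc5 is too sparse to be read here. Sums of at least 50 cells from each genotype were set side by side. In the 22 hormone-cluster sums B2m lay between 21.9 and 241.5 CPM with a median of 92.9 CPM, against 1562 to 2641 CPM with a median of 1833 CPM in the 8 endothelial-like and immune sums. Psmb8 lay between 7.32 and 66.1 CPM in hormone clusters and between 214 and 484 CPM in the endothelial-like and immune sums. Tap1, the transporter subunit encoded head to head with Psmb9, lay between 0.444 and 6.76 CPM in hormone clusters and between 18.7 and 65.9 CPM in the others. Tap2, the other subunit of the same transporter, overlapped, with 10.3 to 41.8 CPM in hormone clusters and 36.1 to 94.2 CPM in the endothelial-like and immune sums. So did Tapbp, with 25.8 to 131 CPM in hormone clusters and 101.6 to 192 CPM in the endothelial-like and immune sums.

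Among the hormone cells themselves, B2m was ordered differently from the heavy chains. In TpitWT it was highest in thyrotrope-like cells at 241.5 CPM, then in the somatotrope-like clusters 2 and 1 at 181 and 163 CPM, the lactotrope-like cluster 0 at 153 CPM, gonadotrope-like cells at 120 CPM and the lactotrope-like cluster 4 at 82.6 CPM. Corticotrope-like cells had 41.6 CPM and melanotrope-like cells 21.9 CPM. The counting intervals of clusters 1 and 0 overlapped, while those of the other neighbours in this order did not, apart from the spread between libraries, which is unknown. H2-D1 did not follow this order: in TpitWT melanotrope-like cells had 314 CPM and corticotrope-like cells 305 CPM, more than the 141 CPM of cluster 1. For each H2-D1 count, melanotrope-like cells of TpitHT and TpitWT had 0.0787 and 0.0698 B2m counts, whereas cluster 2 of TpitHT and TpitWT had 1.29 and 1.34.

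The light chain gene had the log2 ratios of TpitKO over TpitWT farthest from 0 of any member, in some hormone cells and not in others. In the lactotrope-like cluster 0, the largest cluster, B2m had 60.3 CPM in TpitKO, 115.5 CPM in TpitHT and 153 CPM in TpitWT. In the lactotrope-like cluster 4 it had 41.2 CPM in TpitKO, 81.3 CPM in TpitHT and 82.6 CPM in TpitWT. TpitKO was lowest in both, and TpitHT lay between the other 2 genotypes in cluster 0 but beside TpitWT in cluster 4. The log2 ratio of TpitKO over TpitWT was -1.21 in cluster 0 and -0.85 in cluster 4. Counted from the lowest ratio, B2m ranked 6 of 15738 genes tested in cluster 0 and 11 of 12360 in cluster 4.

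The difference was larger in the somatotrope-like cluster 1. B2m had 47.6 CPM (43.4 to 52.2) in TpitKO, 142 CPM (136 to 147) in TpitHT and 163 CPM (156 to 170) in TpitWT. The TpitKO interval lay far below the other 2, and the log2 ratio was -1.58 for TpitKO over TpitWT and -1.40 for TpitKO over TpitHT, 2 contrasts that share the TpitKO library. TpitWT was 3.42-fold above TpitKO (3.09 to 3.79), and B2m ranked 7 of 11259 genes tested, counted from the lowest. The other Gh-rich clusters could not be compared within themselves, because cluster 2 held 17 TpitKO cells against 2092 TpitHT and 2081 TpitWT cells, and cluster 5 held 2457 TpitKO cells against 24 TpitHT and 28 TpitWT cells. B2m had 160 CPM in TpitHT and 181 CPM in TpitWT of cluster 2. In cluster 5 it had 46.8 CPM (44.4 to 49.2) in TpitKO, 62.5 CPM (35.7 to 101.5) in TpitHT and 58.8 CPM (33.6 to 95.5) in TpitWT, on 16 counts in each of the last 2. Cluster 5 was thus low in B2m in all 3 genotypes, within wide intervals for TpitHT and TpitWT. With clusters 1, 2 and 5 added together, a sum chosen after the values were seen, B2m had 47.0 CPM in TpitKO, 153 CPM in TpitHT and 175 CPM in TpitWT, and the log2 ratio of TpitKO over TpitWT was -1.70. That sum mixes clusters in unlike shares.

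Thyrotrope-like cells had 72.6 CPM B2m (60.2 to 86.8) in TpitKO, 167 CPM (135 to 204) in TpitHT and 241.5 CPM (210 to 276) in TpitWT. The 3 intervals did not overlap, and the log2 ratio of TpitKO over TpitWT was -1.61, on 120 TpitKO and 214 TpitWT counts. Gonadotrope-like cells had 115.5 CPM (111 to 120.2) in TpitKO, 103 CPM (96.9 to 110) in TpitHT and 120.4 CPM (111 to 130.4) in TpitWT. Here the TpitKO and TpitWT intervals overlapped, and the log2 ratio of TpitKO over TpitWT was -0.06. Stem-cell-like cells had 705 CPM in TpitKO, 594 CPM in TpitHT and 822 CPM in TpitWT, a log2 ratio of -0.22. Among the clusters given no name, the hemoglobin-bearing cluster 12 had 51.1 CPM in TpitKO, 72.2 CPM in TpitHT and 122 CPM in TpitWT, a log2 ratio of -1.11, while clusters 11 and 13 differed little, with 52.4 and 19.3 CPM in TpitKO, 47.9 and 24.5 CPM in TpitHT, and 58.1 and 23.1 CPM in TpitWT.

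In endothelial-like, macrophage-like and fibroblast-like cells, TpitKO was not below TpitWT. Endothelial-like cells had 2641 CPM in TpitKO, 2455 CPM in TpitHT and 2057 CPM in TpitWT, a log2 ratio of 0.36 for TpitKO over TpitWT. Macrophage-like cells had 1893 CPM in TpitKO, 1910 CPM in TpitHT and 1630.4 CPM in TpitWT, a log2 ratio of 0.21. Fibroblast-like cells had 764 CPM in TpitKO, 584 CPM in TpitHT and 539 CPM in TpitWT, a log2 ratio of 0.50 that lay just under the fold before rounding. In cluster 16, which is also rich in B2m, it had 1578 CPM in TpitKO and 1705 CPM in TpitWT, a log2 ratio of -0.11.

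**Figure D2:**
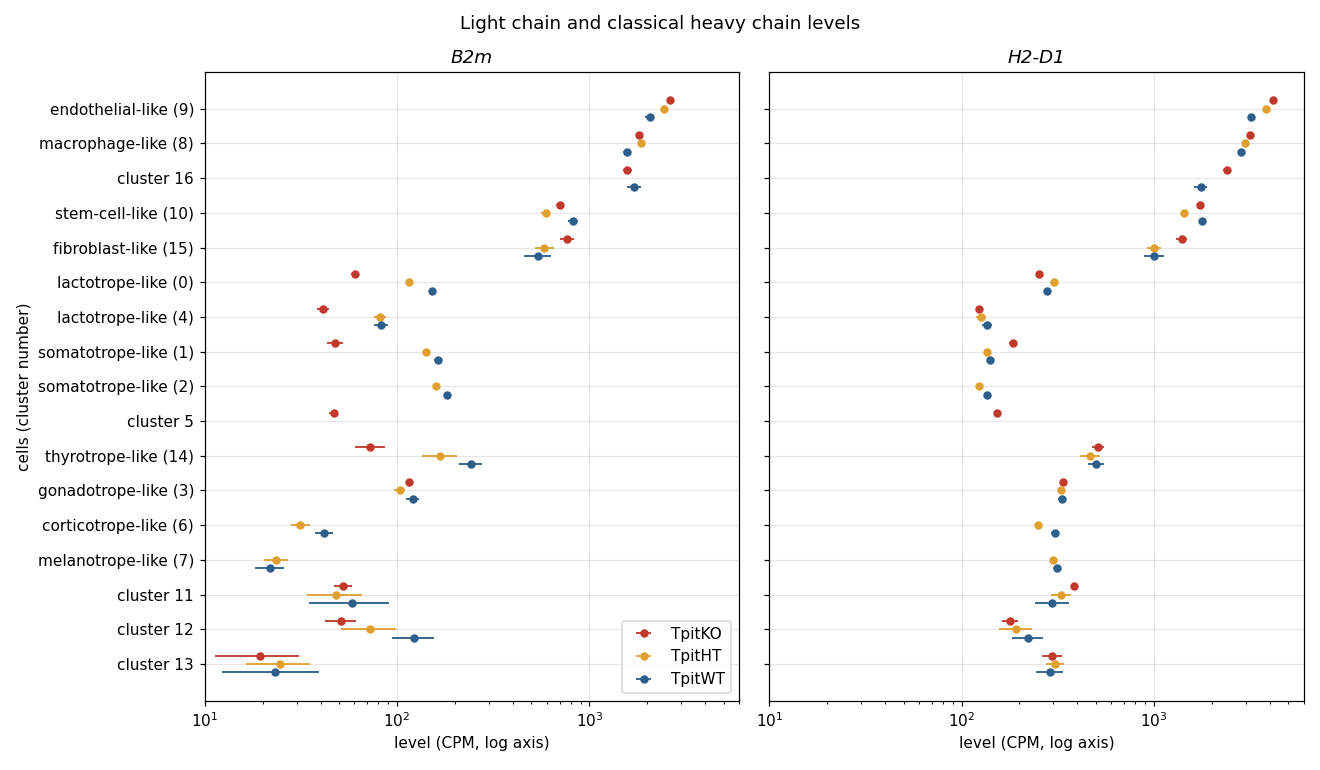
CPM of B2m and of H2-D1 on log axes by cluster or class, with a point for each genotype (TpitKO, TpitHT and TpitWT) and 95% Poisson intervals for counting error. In cluster 1 B2m stands at 47.6 CPM in TpitKO against 163 CPM in TpitWT, while H2-D1 stands at 185 CPM in TpitKO against 141 CPM in TpitWT.

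The share of cells with at least 1 B2m count moved with the CPM. In cluster 0 it was 31.0% in TpitKO, 53.8% in TpitHT and 55.5% in TpitWT, at means of 9320 counts per cell in TpitKO, 11496 in TpitHT and 9014 in TpitWT. In cluster 1 it was 24.5% in TpitKO, 47.7% in TpitHT and 49.2% in TpitWT, at means of 8196, 10741 and 8466 counts per cell. The mean depths of TpitKO and TpitWT were close in both clusters, and the part of depth in the shares was not tested. In thyrotrope-like cells the share was 35.0% in TpitKO, 63.5% in TpitHT and 64.8% in TpitWT. In gonadotrope-like cells it was 59.9% in TpitKO, 55.4% in TpitHT and 53.5% in TpitWT, and in macrophage-like cells it was 99.4% in TpitKO, 99.3% in TpitHT and 97.9% in TpitWT.

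**Figure D3:**
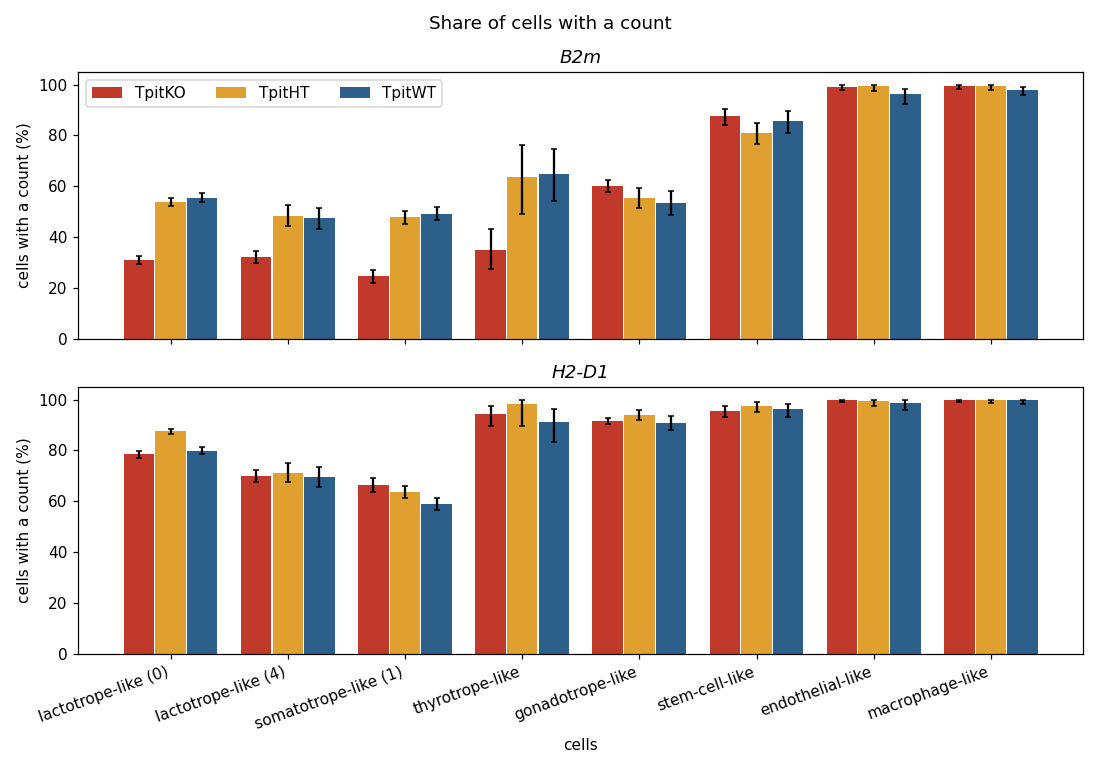
Share of cells with at least 1 count of B2m and of H2-D1, in percent from 0, by cluster or class, with bars for TpitKO, TpitHT and TpitWT and 95% Clopper-Pearson intervals. B2m bars of cluster 1 reach 24.5% in TpitKO and 49.2% in TpitWT, and those of gonadotrope-like cells reach 59.9% in TpitKO and 53.5% in TpitWT.

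Free RNA in the droplets differed between the libraries and was measured beside these shares. Pomc, the hormone gene of the cells missing from the TpitKO library, had a count in 6.65% of TpitKO, 97.8% of TpitHT and 94.2% of TpitWT cells of cluster 1. The macrophage gene C1qa had a count in 0.842% of TpitKO, 0.700% of TpitHT and 0.367% of TpitWT cells of cluster 1, against 99.8% of TpitKO, 99.8% of TpitHT and 99.4% of TpitWT macrophage-like cells. The 10 macrophage markers together had 7.91 CPM in TpitKO, 3.37 CPM in TpitHT and 4.48 CPM in TpitWT of cluster 1, with 8, 9 and 9 of them seen and Mrc1 at 0 in each. The B2m counts that would come along with marker counts of macrophages, endothelial cells, Pomc cells, and Gh-rich and Prl-rich clusters, at the ratio of B2m to markers in those cells, came to 7.38% of the B2m counts of cluster 1 in TpitKO, 2.30% in TpitHT and 2.43% in TpitWT. In cluster 0 they came to 5.07% in TpitKO, 4.10% in TpitHT and 4.07% in TpitWT, and in gonadotrope-like cells to 6.91% in TpitKO, 10.2% in TpitHT and 12.7% in TpitWT. These sums hold no part for free RNA from cells of a cluster's own kind. Gh-rich clusters were left out for cluster 1 and Prl-rich clusters for cluster 0. Pomc cells were left out for all TpitKO values. The part of free RNA in the B2m differences was not tested.

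The classical heavy chains differed less between genotypes than B2m in lactotrope-like and thyrotrope-like cells, and in cluster 1 they differed in the other direction. In lactotrope-like cells H2-K1 had 30.6 CPM in TpitKO, 38.9 CPM in TpitHT and 40.6 CPM in TpitWT, a log2 ratio of -0.32 for TpitKO over TpitWT. H2-D1 had 199.7 CPM in TpitKO, 274 CPM in TpitHT and 248 CPM in TpitWT there, a log2 ratio of -0.30 for TpitKO over TpitWT and -0.44 for TpitKO over TpitHT. Both were thus lower in TpitKO in the lactotrope-like sum, under the fold. That sum mixes clusters 0 and 4 in unlike shares, with 1463 TpitKO, 588 TpitHT and 592 TpitWT cells from cluster 4. Within clusters 0 and 4, H2-D1 had log2 ratios of -0.13 and -0.12 for TpitKO over TpitWT. For TpitKO over TpitHT it had -0.25 and -0.03. H2-K1 had -0.27 in both clusters for TpitKO over TpitWT, and -0.24 and 0.03 for TpitKO over TpitHT. By cluster, H2-D1 had 252 CPM in TpitKO, 301 CPM in TpitHT and 277 CPM in TpitWT of cluster 0. In cluster 1 H2-D1 had 185 CPM in TpitKO, 136 CPM in TpitHT and 141 CPM in TpitWT, and in thyrotrope-like cells it had 513 CPM in TpitKO, 465 CPM in TpitHT and 499 CPM in TpitWT. H2-K1 had 49.8 CPM in TpitKO, 35.2 CPM in TpitHT and 37.9 CPM in TpitWT of cluster 1. TpitKO was the highest of the 3 genotypes in cluster 1 for both heavy chains, and neither reached the fold there. CPM are taken over all counts, and Gh held 62.7% of those of cluster 1 in TpitKO, 68.4% in TpitHT and 68.0% in TpitWT. The median log2 ratio of all genes tested in cluster 1 was 0.09 for TpitKO over TpitWT. The part of the Gh share in the cluster 1 values of the members was not tested. H2-K1 in thyrotrope-like cells had 78.7 CPM in TpitKO, 78.3 CPM in TpitHT and 114 CPM in TpitWT, a log2 ratio of -0.48 for TpitKO over TpitWT. H2-D1 was also seen in similar shares of cells, with 66.3% in TpitKO, 63.7% in TpitHT and 58.9% in TpitWT of cluster 1.

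B2m was also set against H2-D1 within the same cells, a measure in which the total of the library cancels out. It kept its order of genotypes in clusters 1 and 0 and in thyrotrope-like cells. In cluster 4 the B2m counts for each H2-D1 count were 0.334 in TpitKO, 0.645 in TpitHT and 0.612 in TpitWT. There TpitKO was lowest, and the intervals of TpitHT and TpitWT overlapped. In cluster 1 there were 0.258 B2m counts for each H2-D1 count in TpitKO, 1.04 in TpitHT and 1.15 in TpitWT. In cluster 0 there were 0.239 in TpitKO, 0.384 in TpitHT and 0.552 in TpitWT, and in thyrotrope-like cells 0.142 in TpitKO, 0.360 in TpitHT and 0.484 in TpitWT. These ratios were close to each other in gonadotrope-like cells, at 0.343 in TpitKO, 0.315 in TpitHT and 0.363 in TpitWT. They were nearly equal in endothelial-like cells, at 0.632 in TpitKO, 0.638 in TpitHT and 0.641 in TpitWT, and in macrophage-like cells they were 0.622 in TpitKO, 0.670 in TpitHT and 0.598 in TpitWT.

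H2-T23 was higher in TpitKO in several cell types. In stem-cell-like cells it had 93.2 CPM in TpitKO, 55.0 CPM in TpitHT and 49.4 CPM in TpitWT, a log2 ratio of 0.80 for TpitKO over TpitWT and a fold of 1.89 (1.44 to 2.49). In fibroblast-like cells it had 167 CPM in TpitKO, 69.1 CPM in TpitHT and 79.9 CPM in TpitWT, and in cluster 1 it had 42.3 CPM in TpitKO, 22.9 CPM in TpitHT and 24.5 CPM in TpitWT. TpitKO stood above both other libraries in all 3 of these cell types, and TpitHT stood close to TpitWT. In fibroblast-like cells the 10 macrophage markers moved in the order of the genotypes, with a sum of 369 CPM and all 10 seen in TpitKO, 148 CPM and 9 seen in TpitHT, and 10.4 CPM and 2 seen in TpitWT, where C1qa, C1qb, C1qc and Csf1r were at 0. Their part in the fibroblast-like values of H2-T23, Psmb8, Psmb9 and B2m was not tested. In stem-cell-like cells the same markers summed to 10.7 CPM in TpitKO, 69.5 CPM in TpitHT and 29.1 CPM in TpitWT. Their part in the stem-cell-like values of H2-T23 was not tested either. In endothelial-like cells H2-T23 differed less, with 395 CPM in TpitKO, 392.5 CPM in TpitHT and 332 CPM in TpitWT.

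The transporter genes moved apart from each other. Tap1 had 64.4 CPM in TpitKO, 36.9 CPM in TpitHT and 18.7 CPM in TpitWT of endothelial-like cells, on 151, 45 and 14 counts. That was a log2 ratio of 1.37 for TpitKO over TpitWT and a fold of 3.44, with a wide interval of 1.98 to 6.43. Tap2 was level in the same cells, with 90.8 CPM in TpitKO, 94.2 CPM in TpitHT and 91.0 CPM in TpitWT. In lactotrope-like cells (clusters 0 and 4) Tap2 was lower in TpitKO, with 15.2 CPM in TpitKO, 27.9 CPM in TpitHT and 28.0 CPM in TpitWT. The log2 ratio of TpitKO over TpitWT was -0.59 in that sum, which mixes the clusters in unlike shares. It was -0.55 in cluster 0 and -0.21 in cluster 4.

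Tapbp, which bridges the heavy chain and the transporter, was higher in TpitKO in endothelial-like cells, with 192 CPM in TpitKO, 167 CPM in TpitHT and 126 CPM in TpitWT, and in cluster 1, with 65.3 CPM in TpitKO, 48.0 CPM in TpitHT and 39.8 CPM in TpitWT. The log2 ratios of TpitKO over TpitWT were 0.57 in endothelial-like cells and 0.60 in cluster 1.

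The immunoproteasome genes were higher in TpitKO in endothelial-like and fibroblast-like cells. Psmb8 had 403 CPM in TpitKO, 298 CPM in TpitHT and 214 CPM in TpitWT of endothelial-like cells, and 200.4 CPM in TpitKO, 124 CPM in TpitHT and 97.3 CPM in TpitWT of fibroblast-like cells. Psmb9 had 212 CPM in TpitKO, 205 CPM in TpitHT and 144.5 CPM in TpitWT of endothelial-like cells. In both genes and both cell types TpitKO was highest and TpitWT lowest, Psmb9 in fibroblast-like cells resting on 76 TpitKO, 36 TpitHT and 12 TpitWT counts. The macrophage markers, whose fibroblast-like sums are given with H2-T23, summed to 129.6 CPM in TpitKO, 142 CPM in TpitHT and 85.7 CPM in TpitWT of endothelial-like cells, and their part in these values was not tested. Set against the constitutive subunit Psmb5 that it replaces, Psmb8 had 2.61 counts for each Psmb5 count in TpitKO, 1.84 in TpitHT and 1.78 in TpitWT of endothelial-like cells, and 5.30 in TpitKO, 3.88 in TpitHT and 4.38 in TpitWT of macrophage-like cells. In lactotrope-like cells the ratio was far lower, at 0.117 in TpitKO, 0.167 in TpitHT and 0.140 in TpitWT.

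In the somatotrope-like cluster 2, where TpitHT and TpitWT can be compared, both immunoproteasome genes were higher in TpitHT. Psmb8 had 53.8 CPM in TpitHT and 33.4 CPM in TpitWT, and Psmb9 had 26.4 CPM in TpitHT and 13.7 CPM in TpitWT. The log2 ratios of TpitHT over TpitWT were 0.55 and 0.62, in a cluster where 0.194% of all genes tested were past the fold upwards. In cluster 5 of TpitKO Psmb8 had 55.4 CPM and Psmb9 had 30.4 CPM. With clusters 1, 2 and 5 added, Psmb8 had 48.0 CPM in TpitKO, 44.2 CPM in TpitHT and 28.0 CPM in TpitWT. TpitKO and TpitHT lay close together and above TpitWT in that sum. It mixes clusters in unlike shares, with 2457 of its 3662 TpitKO cells from cluster 5. Within cluster 1 the log2 ratio of Psmb8 was 0.33 for TpitKO over TpitWT and -0.10 for TpitKO over TpitHT.

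Nlrc5, the transactivator of class I genes, was too sparse to compare. It had 55 counts in TpitKO, 38 in TpitHT and 39 in TpitWT over all cells. In macrophage-like cells, where it was best seen, 27 TpitKO, 10 TpitHT and 8 TpitWT counts gave 11.9 CPM in TpitKO, 5.20 CPM in TpitHT and 6.37 CPM in TpitWT. Outside the immune, endothelial-like, stem-cell-like and fibroblast-like clusters it had 10 TpitKO, 18 TpitHT and 22 TpitWT counts in all.

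Counted over the set, TpitKO over TpitWT put 2 of 9 members past the fold downwards in lactotrope-like cells (B2m and Tap2), where 1.26% of all genes tested were, and 0 upwards, where 0.224% were. By cluster, B2m was past the fold in clusters 0 and 4 and Tap2 in cluster 0 alone. In cluster 1 TpitKO over TpitWT put 1 of 9 downwards (B2m, beside 1.12% of all genes) and 2 upwards (H2-T23 and Tapbp, beside 2.62%). The whole somatotrope-like class gave the same 3 genes, beside 10.1% of all genes downwards and 1.11% upwards, with cluster 2 nearly absent from its TpitKO cells. In thyrotrope-like cells 1 of 7 was past the fold downwards (B2m), where 8.4% of all genes were, and 0 upwards, where 4.81% were, so a single member there is near the background. Gonadotrope-like cells had 0 of 9 in either direction, where 2.18% of all genes were past the fold downwards and 1.05% upwards. Macrophage-like cells also had 0 of 9 in either direction, where 5.83% were past the fold downwards and 6.49% upwards. In stem-cell-like cells 1 of 9 was past the fold upwards (H2-T23), where 4.95% of all genes were, and 0 downwards, where 4.05% were. In cluster 16 1 of 8 was past the fold upwards, where 38.6% of all genes were.

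The vascular and connective tissue cells held more members past the fold upwards. In endothelial-like cells it was 5 of 9 (H2-K1, Tap1, Tapbp, Psmb8 and Psmb9), where 12.8% of all genes tested were, and 0 downwards, where 6.17% were. The median log2 ratio of all genes was 0.09 in these cells. Median-of-ratios size factors put that median at nearly 0 and left Tap1 at 1.29 and Psmb8 at 0.77 past the fold and H2-K1 at 0.42, Tapbp at 0.47 and Psmb9 at 0.42 under it. In fibroblast-like cells 3 of 8 members were past the fold upwards (H2-T23, Psmb8 and Psmb9), where 17.6% of all genes were, and 0 downwards, where 8.61% were, and where the macrophage markers also differed. TpitKO over TpitHT, which shares the TpitKO library, put 1 of 9 members upwards in endothelial-like cells (Tap1, log2 ratio 0.67; 5.18% of all genes), 4 of 8 in fibroblast-like cells (11.2%), and 4 of 9 downwards in lactotrope-like cells (B2m, Tap2, Psmb8 and Psmb9; 1.23%). The lactotrope-like class mixes clusters 0 and 4 in unlike shares. By cluster the TpitKO over TpitHT ratio of Psmb8 was -0.42 in cluster 0 and 0.07 in cluster 4. Tap2 had -0.49 and -0.35 there, Psmb9 had -0.57 and -0.35, and B2m was past the fold in both. In cluster 1 TpitKO over TpitHT put B2m downwards (0.887% of all genes) and H2-T23 upwards (3.21%). TpitHT over TpitWT put 0 of 9 members past the fold in either direction in lactotrope-like cells, where 0.0771% of all genes were past it downwards and 0.0593% upwards. Members were past the fold for this contrast in other cells. Tap1 had 0.71 in endothelial-like cells, ranked 243 of 5774 from the highest. In thyrotrope-like cells B2m had -0.51, ranked 292 of 4204 from the lowest, and Psmb8 had 0.69, ranked 129 from the highest. Psmb8 and Psmb9 had 0.51 and 0.50 in somatotrope-like cells. In cluster 12 B2m had -0.68 and Tapbp had 0.56, and in cluster 11 H2-K1 had -0.69.

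**Figure D4:**
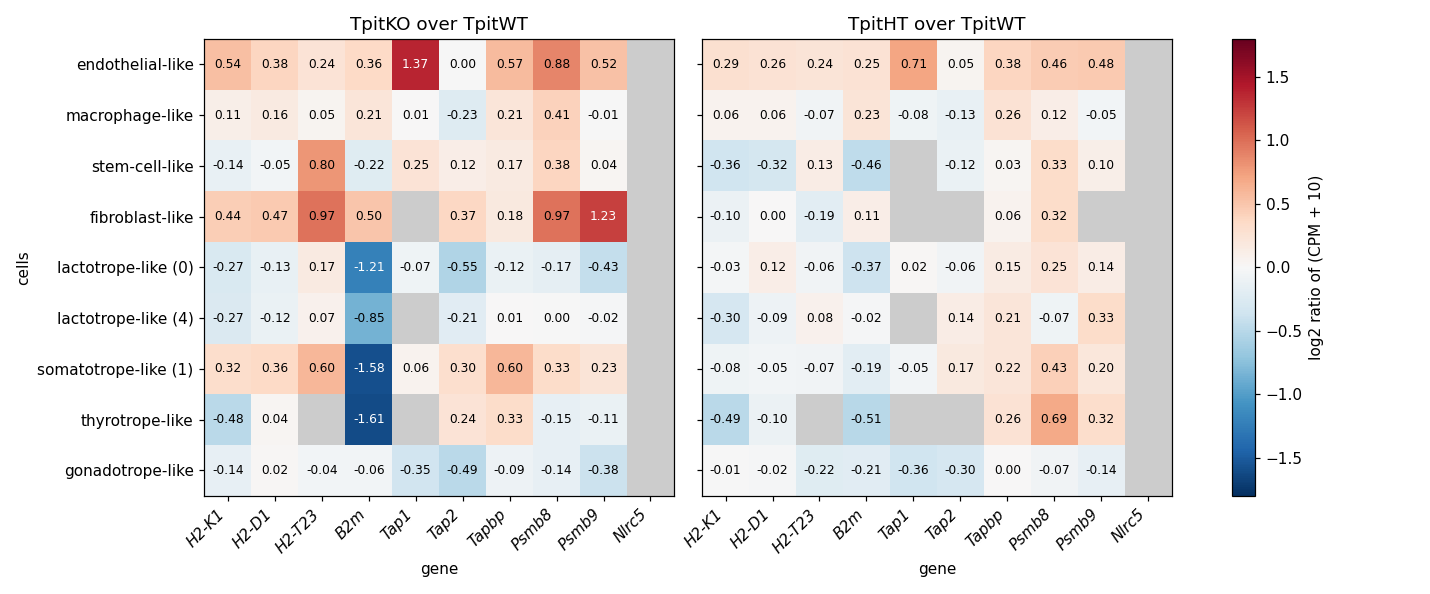
Log2 ratio of CPM + 10 for each member and cell class, TpitKO over TpitWT in the left panel and TpitHT over TpitWT in the right panel; grey marks fewer than 50 counts. B2m has the lowest values of the left panel, at -1.21 in cluster 0, -1.58 in cluster 1 and -1.61 in thyrotrope-like cells, and Tap1 in endothelial-like cells is at 1.37.

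Summed over all cells, B2m differed little between the libraries. It had 166 CPM in TpitKO, 166 CPM in TpitHT and 185 CPM in TpitWT, a log2 ratio of -0.15 for TpitKO over TpitWT. H2-K1 had 150.3 CPM in TpitKO, 99.5 CPM in TpitHT and 99.3 CPM in TpitWT, a log2 ratio of 0.55, and it was the only 1 of 10 members past the fold upwards, where 1.05% of all genes were. None was past it downwards, where 0.569% were. H2-T23 had 32.9 CPM in TpitKO, 21.3 CPM in TpitHT and 21.3 CPM in TpitWT (log2 ratio 0.46 for TpitKO over TpitWT), and Psmb8 had 43.9 CPM in TpitKO, 39.6 CPM in TpitHT and 30.9 CPM in TpitWT (0.40). H2-D1 had 388 CPM in TpitKO, 309 CPM in TpitHT and 295 CPM in TpitWT (0.39). These 3 lay higher in TpitKO but under the fold. TpitKO over TpitHT also put H2-K1 alone past the fold, with 0.734% of all genes upwards and 0.41% downwards. TpitHT over TpitWT put 0 of 10 past the fold, where 0.12% of all genes were upwards and 0.074% downwards. In the whole pituitary the make-up of cells moves with the genotype, and fewer cells of a type cannot be told apart from less RNA per cell in such a sum.

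The cells behind the sums differed between the libraries. Endothelial-like cells were 4.12% of TpitKO, 2.19% of TpitHT and 1.85% of TpitWT cells, and they held 28.1% of all B2m counts in TpitKO, 11.8% in TpitHT and 7.74% in TpitWT. Clusters other than immune, endothelial-like, stem-cell-like and fibroblast-like held 36.9% of all B2m counts in TpitKO, 66.3% in TpitHT and 71.9% in TpitWT, although they made up 87.1% of TpitKO, 90.9% of TpitHT and 91.7% of TpitWT cells. Tap2 and Tapbp came mostly from those clusters in every library, Tap2 with 86.1% of its counts in TpitKO, 93.5% in TpitHT and 93.5% in TpitWT. With the 13 comparable clusters given the same weight in both genotypes, B2m had 174 CPM in TpitKO and 219 CPM in TpitWT (log2 ratio -0.32), and H2-K1 had 160.5 CPM in TpitKO and 142 CPM in TpitWT (0.17).

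**Figure D5:**
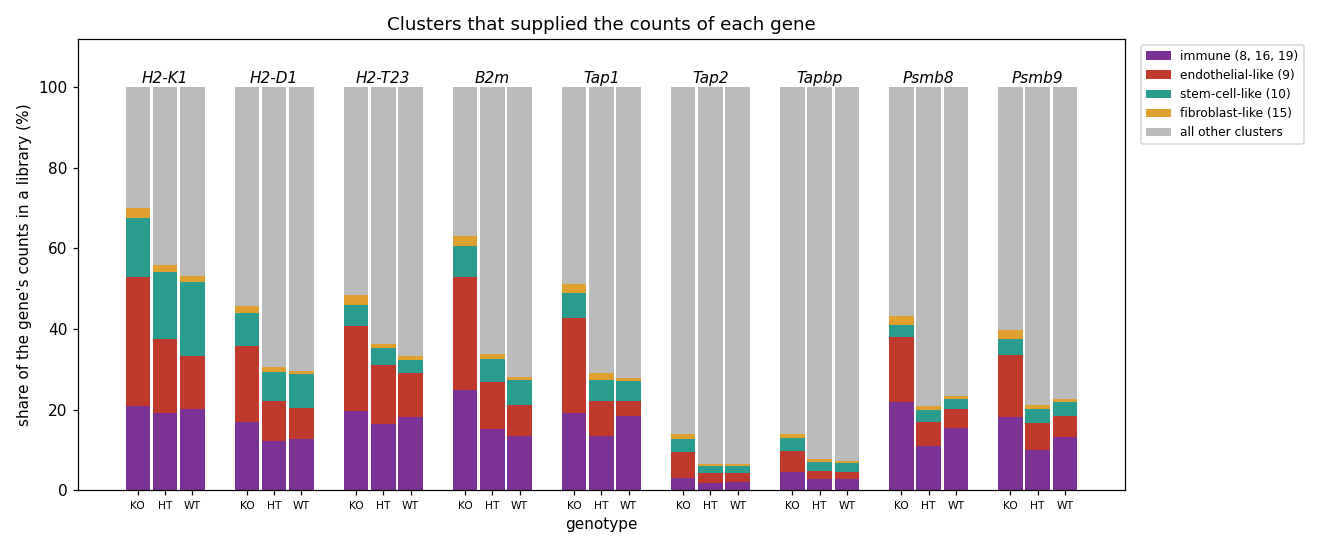
Stacked shares, in percent, of the counts of 9 members by the cells they came from (immune clusters 8, 16 and 19, endothelial-like, stem-cell-like, fibroblast-like and all other clusters), with columns for TpitKO, TpitHT and TpitWT; Nlrc5 is left out for its few counts. The endothelial-like share of B2m is 28.1% in TpitKO, 11.8% in TpitHT and 7.74% in TpitWT, and Tap2 comes mostly from the other clusters in each genotype.

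Across the 47 sums of at least 50 cells, the members differed in how closely they followed their common profile. Pearson's r with the mean over the 10 members, of which each is a part, was 0.97 for H2-K1, 0.97 for Psmb9, 0.96 for H2-D1, 0.96 for Psmb8, 0.95 for H2-T23, 0.95 for Tap1, 0.93 for B2m, 0.81 for Nlrc5, 0.79 for Tapbp and 0.78 for Tap2. The sums share 3 libraries and 21 clusters, so these values are descriptions. Among 12953 genes, those most like the members outside the set included H2-Q4 (0.97), H2-Q7 (0.96), Lfng (0.95), Wipf1 (0.95), Ifngr1 (0.94), Parp14 (0.94) and Tgfbr2 (0.93). H2-Q4 and H2-Q7 are further class I heavy chains, which may share reads with the members, and Ifngr1 is a chain of the interferon gamma receptor. Within the 21 sums of endocrine-like clusters B2m parted from the heavy chains, with r of -0.10 with H2-K1, -0.01 with H2-D1 and -0.24 with H2-T23. The genes most like B2m there were Efnb2 (0.85), Lpin1 (0.83), Tes (0.81) and Crispld2 (0.80).

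Few further genes of the pathway were past the fold in the hormone cells where B2m was. Of 11 further class I pathway genes, which include the chaperones Calr, Canx and Pdia3 and the proteasome activator Psme2, 0 were past the fold for TpitKO over TpitWT in lactotrope-like cells and 0 in cluster 1. Of all genes, 1.26% were past the fold downwards and 0.224% upwards in lactotrope-like cells, and 1.12% and 2.62% in cluster 1. The median log2 ratio of the 11 genes was -0.13 in lactotrope-like cells, beside -0.06 over all genes tested. In thyrotrope-like cells 1 of the 9 tested was past the fold downwards, the chaperone gene Calr, where 8.4% of all genes were. The constitutive proteasome subunits Psmb5, Psmb6 and Psmb7 were not past the fold in lactotrope-like, stem-cell-like or endothelial-like cells or in cluster 1. Of the 12 interferon signalling genes tested in cluster 1, 0 were past the fold, where 1.12% of all genes were downwards and 2.62% upwards. Irf1, a factor that binds interferon response elements of class I genes, had 51.9 CPM in TpitKO, 28.5 CPM in TpitHT and 36.2 CPM in TpitWT there, a log2 ratio of 0.42 for TpitKO over TpitWT.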

How the data were processed

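The 3 libraries were made with the 10x Chromium 3′ v3 chemistry, per the labels' protocols. Tools named in the submitters' processing notes are Seurat 3.1, Cell Ranger 5 and DESeq2, with the builds GRCm38 and mm10; the aligner's settings are not given in the sources used here. The deposited table of raw counts holds, per the file headers, a sum of counts per gene for each of 61 combinations of genotype and cluster, over 21 clusters, and beside it the number of cells with a count. Whether reads were collapsed to molecules is not given in the sources used here. The authors' second table holds those sums scaled by them (a signal, used as an alternative only), and a deposited list gives each cell barcode its cluster number.

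From the raw counts, the 55403 rows were added by symbol to 55293, and CPM were taken over all counts of a sum, with log2 ratios of CPM + 10, at least 50 counts in both genotypes and 50 cells in each, and a fold of 0.5 on the log2 scale. Poisson, Clopper-Pearson and conditional binomial intervals (95%) cover counting error only. With 1 library per genotype no test was made. A cluster was called by a cell type when at least 3 of that type's markers were among its 100 leading genes, more than of any other type: clusters 0 and 4 lactotrope-like, 1 and 2 somatotrope-like, 3 gonadotrope-like, 14 thyrotrope-like, 6 corticotrope-like, 7 melanotrope-like, 10 stem-cell-like, 8 and 19 macrophage-like, 9 endothelial-like, 15 fibroblast-like and 18 pituicyte-like. Clusters 12, 16 and 20 also met the rule, for erythroid, T or NK cell and cycling markers, and were left unnamed after their leading genes had been seen. These names were rebuilt from markers and may differ from the study's. The members and all lists were chosen with earlier results of these data known; all members are named, and of other lists at most the 4 genes with most counts, besides those past the fold where these are few, which were named after their values were seen. Some named results of these lists are not reported here. Scripts were tested on simulated data. Alternatives were another pseudocount, no count filter, a fold of 1, other totals, the authors' scaled counts, the same make-up of clusters and omission of immune and endothelial clusters. Python 3.11.15, pandas 2.3.3, numpy 2.4.6, scipy 1.17.1 and matplotlib 3.10.9 were used.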

Additional observations from a re-analysis of the deposited data

How the results depend on the processing

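The log2 ratio of B2m for TpitKO over TpitWT kept its sign under every setting run in each cell class: -1.38 to -1.003 in lactotrope-like, -1.86 to -1.41 in somatotrope-like (-1.70 with clusters 1, 2 and 5 added, chosen after seeing the data), -1.72 to -1.55 in thyrotrope-like, -0.06 to -0.01 in gonadotrope-like, -0.24 to -0.22 in stem-cell-like, 0.23 to 0.36 in endothelial-like, 0.16 to 0.22 in macrophage-like and 0.41 to 0.50 in fibroblast-like cells. Over all cells it ran from -0.80 without immune and endothelial clusters to 0.10 with the authors' scaled counts. The count of members past the fold upwards over all cells was 1, became 2 with a pseudocount of 1 CPM, and became 0 with totals without hormone and mitochondrial genes, median-of-ratios size factors, the authors' scaled counts, a fold of 1, without immune and endothelial clusters, and with the same make-up of clusters. The count downwards was 0 and became 1 (B2m) without immune and endothelial clusters. Over 69 pairs of a member and 1 of 8 cell classes, 4 were past the fold downwards, and 9 with a pseudocount of 1 CPM. Upwards 11 were past it, and 2 with a fold of 1. Of all genes, 1.26% (lactotrope-like) to 10.1% (somatotrope-like) were past it downwards. Upwards the share ran from 0.224% (lactotrope-like) to 17.6% (fibroblast-like). Of the 11 upward pairs, 5 were endothelial-like and 3 fibroblast-like, the classes with the highest upward shares. Of the 8 genes most like the members, 5 remained with sums of at least 100 cells. The cause of these shifts was not tested.

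No paired analysis was possible because there was 1 library of each genotype, and no replicate was left out for the same reason. The files give sums for each cluster: cells were not thinned to 1 depth, doublets were not checked here, and shares of cells with a count depend on depth. Low counts limit Nlrc5 throughout, Tap1 outside immune and endothelial-like cells, and all members in thyrotrope-like and fibroblast-like cells.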

Other observations

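Genes of the interferon response outside the class I set were also counted, from a list of 18 chosen with earlier results known. For TpitKO over TpitWT, 11 of 16 tested were past the fold upwards in stem-cell-like cells, where 4.95% of all genes were, with a median log2 ratio of 0.63 beside 0.01 over all genes, and 9 of 18 in endothelial-like cells, where 12.8% were, with a median of 0.52 beside 0.09. In lactotrope-like cells 0 of 16 were past it upwards, where 0.224% of all genes were, with a median of -0.10. Ifitm3, which restricts virus entry, had 2653 CPM in TpitKO, 1874.5 CPM in TpitHT and 1506 CPM in TpitWT of stem-cell-like cells, and 2053.5 CPM in TpitKO, 1616 CPM in TpitHT and 1087 CPM in TpitWT of endothelial-like cells. Bst2, which tethers budding viruses, had 595 CPM in TpitKO, 371 CPM in TpitHT and 365 CPM in TpitWT of endothelial-like cells. Ifi27 went the other way in macrophage-like cells, with 92.0 CPM in TpitKO, 118 CPM in TpitHT and 173.5 CPM in TpitWT, a log2 ratio of -0.85.

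Of the interferon signalling genes, 3 of 12 were past the fold upwards in endothelial-like cells (Ifngr2, Irf2 and Irf7), where 12.8% of all genes were. Calr, the chaperone calreticulin, was lower in stem-cell-like cells, with 396 CPM in TpitKO, 459 CPM in TpitHT and 644 CPM in TpitWT, a log2 ratio of -0.69. Of the other class I heavy chains, 1 of 8 was past the fold upwards in endothelial-like cells (H2-T10), near the 12.8% of all genes. In cluster 1 it was 0 of 5, where 2.62% of all genes were.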
